A study of Rattus norvegicus with 8 samples.

Results

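The miRNAs described here are those of the miR-223, miR-142, miR-155 and miR-150 hairpins, which are best known from cells of the blood lineage. All rat miRNAs whose name on the array begins with rno-miR-223-, rno-miR-142-, rno-miR-155- or rno-miR-150- were taken, whatever their signal, which gave 8 of the 758 rat miRNAs measured, a -5p and a -3p arm for each hairpin. Of these, 4 were detected on at least 4 of the 8 arrays and were tested along with all other miRNAs that passed this filter, 151 in all. The 4 tested members were rno-miR-223-3p, rno-miR-142-3p, rno-miR-155-5p and rno-miR-150-5p. The other 4, among them rno-miR-142-5p, were detected on no array. The prefix rno-, for rat, is left out from here on.

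The arrays profiled prostatic urethral tissue of male Sprague Dawley (SD) rats aged 10 to 12 months, taken 5 days after surgery. In the TULP group (simulated transurethral laser prostatectomy), a thulium laser had vaporized the urothelium of the prostatic urethra, reached through the opened bladder. In the sham group the abdomen was opened with no laser applied, so the groups also differed in the opening of the bladder. Each group held 4 rats with 1 array each, and the question was how these miRNAs differed between the wound and the same site in sham rats. The descriptions of the TULP samples name sham surgery, while their titles, source names and treatment fields name trauma. Groups were taken from the titles, and the files do not settle that conflict.

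A hairpin is the short folded RNA from which the mature miRNA is cut, and its -5p and -3p arms are the strands of its stem. Usually one arm is loaded into the silencing complex and the other is degraded. A mature miRNA finds its target messenger RNAs mainly through the seed, a short stretch near its 5′ end. miR-223 is abundant in neutrophils and monocytes and tempers granulocyte maturation and inflammatory signalling. miR-142 is made in nearly all blood cells and is little expressed elsewhere. miR-155 is made from a host transcript that is switched on when macrophages and lymphocytes are activated. miR-150 is typical of mature resting B cells, T cells and natural killer cells, and its level falls when lymphocytes are activated.

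The mature sequences of the arms detected in these tissues are shown first, because the probes of the array read them directly. They are from RefSeq (rat build GRCr8), which matched 6 of the 8 members, and the seed, bases 2 to 8, is in capitals.
miR-223-3p: uGUCAGUUugucaaauacccc
miR-142-3p: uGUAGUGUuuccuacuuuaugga
miR-155-5p: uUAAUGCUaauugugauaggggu
The arms that were detected on no array follow for comparison.
miR-223-5p: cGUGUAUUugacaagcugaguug
miR-142-5p: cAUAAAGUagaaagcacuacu
miR-155-3p: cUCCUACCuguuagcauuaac
None of the 6 seeds was found in any other of the 693 mature rat miRNAs of that table. The 6 arms shown thus share no seed.

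In build GRCr8, miR-223-3p lies at chrX:65151450-65151470, miR-142-3p at chr10:73055155-73055177 and miR-155-5p at chr11:37261117-37261139, all on the plus strand. Mir223 overlaps the long non-coding RNA gene LOC120099372, Mir142 overlaps the protein-coding gene Tspoap1, and Mir155 lies in the long non-coding RNA gene Mir155hg, its known host. Mir150, at chr1:104741487-104741571, overlaps no other annotated gene. The hairpins below show where each arm sits, with both mature arms in capitals.
Mir223: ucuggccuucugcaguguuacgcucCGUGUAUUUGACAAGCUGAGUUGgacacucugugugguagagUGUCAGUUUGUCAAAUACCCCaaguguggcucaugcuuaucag
Mir142: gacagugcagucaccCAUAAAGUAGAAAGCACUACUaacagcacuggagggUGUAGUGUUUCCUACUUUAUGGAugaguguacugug
Mir155: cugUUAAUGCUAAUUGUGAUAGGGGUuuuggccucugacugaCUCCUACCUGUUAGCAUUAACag
From Mir223 and Mir142 the arm on the 3′ side was detected, and from Mir155 and Mir150 the arm on the 5′ side.

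Each array detected 136 to 156 miRNAs, and none of its 12128 spots was saturated. The summed signal of detected miRNAs was 21075 to 37357 on the sham arrays, against 16787 to 19464 on the TULP arrays. Signals were quantile normalized, so each level and each difference is read against the rest of its own array. The level of a miRNA is its log2 normalized signal, and an undetected miRNA was set to a floor of 0.96 on that scale, which is not a measured level. All arrays lay on 1 slide, whose first row held sham replicate 4 with TULP replicates 1, 2 and 3, and whose other row held the rest. In whole tissue, more cells of a type and more RNA per cell cannot be told apart.

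miR-223-3p and miR-142-3p were higher in the TULP group, by 2.10 and 2.01 on the log2 scale, and both were differentially expressed (limma adjusted p under 0.05 and more than 2-fold). The value for miR-142-3p rests on 2 sham arrays held at the floor: it was 2.49 with a floor of 1, 1.49 with a floor of 4 and 1.20 with all probes summed. miR-155-5p was detected on 3 TULP arrays and 1 sham array and did not pass the test. The level of miR-150-5p was lower in the TULP group by 0.59 on the log2 scale and did not pass after adjustment. Thus 2 of the 8 members, and of the 4 tested, were differentially expressed, both higher. miR-142-3p and miR-155-5p met the detection filter mainly through the TULP arrays, so this count is a description. Among all 151 tested miRNAs the share was 9.27%, made up of 5.30% higher and 3.97% lower. At the adjusted p alone, the same 2 members passed, against 30.5% of all tested miRNAs. The levels of the groups did not overlap for 3 of the 4, against 29.1% of all tested miRNAs (14.6% higher and 14.6% lower).

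**Figure D1:**
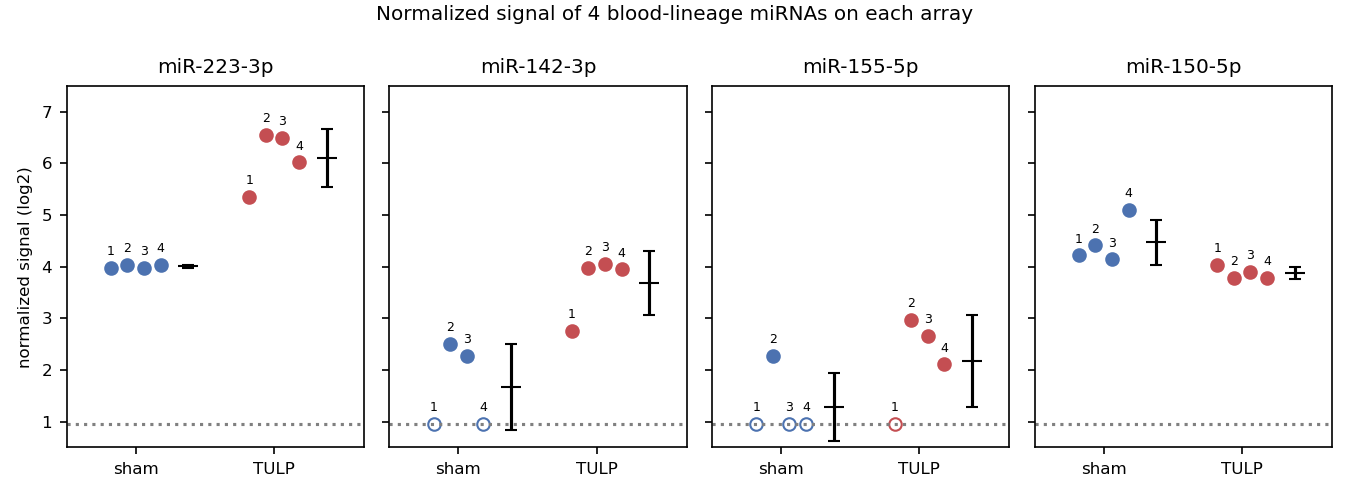
Log2 normalized signal (vertical axis) of miR-223-3p, miR-142-3p, miR-155-5p and miR-150-5p on each of the 8 arrays, with replicate numbers beside the points, open circles for undetected values at the floor of 0.96 (dotted line), and bars for mean ± SD (n = 4). The TULP points of miR-223-3p lie at 5.35 to 6.56, above sham points that all lie at 3.98 to 4.03, and those of miR-150-5p lie below all sham points.

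miR-223-3p, the granulocyte and monocyte miRNA, was detected on all 8 arrays. Its level was 3.98, 4.03, 3.98 and 4.03 in sham replicates 1 to 4 and 5.35, 6.56, 6.50 and 6.02 in TULP replicates 1 to 4. The sham levels were nearly identical because quantile normalization gives the same level to the same rank, so their SD understates the spread of the signals. All TULP arrays were higher, and TULP replicate 1 was the lowest of them. Before normalization the signal was 17.1, 19.6, 16.7 and 22.2 on the sham arrays, against 44.3, 70.8, 65.4 and 45.9 on the TULP arrays, with no overlap either. Among the detected miRNAs of an array, it ranked 92nd or 93rd by signal in the sham group and between 39 and 57 in the TULP group. Its mean level rose from 4.01 ± 0.03 to 6.11 ± 0.56 (SD, n = 4 per group), a difference of 2.10 (SE 0.26, 95% interval 1.49 to 2.71, limma adjusted p = 0.00313). This was the third largest rise of the 151 tested miRNAs.

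The difference of miR-223-3p was 2.10 within the first slide row and 2.03 within the other, and 2.06 with the row as a block (limma adjusted p = 0.0148). Spike-ins are control RNAs put into every sample at 1 amount ahead of labelling. With the arrays scaled to them, the median difference of all tested miRNAs shifted from -0.02 to -0.78, and miR-223-3p was still higher in the TULP group, by 1.33 (SE 0.21, limma adjusted p = 0.00116). Relative to that median the rise was 2.11. After normexp, a background correction that was run with an offset of 50 and compresses low signals, its difference was 0.71 (limma adjusted p = 0.00272), under 2-fold.

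Both probes of miR-223-3p showed the rise. They are ggggtatttgacaaactgaca, which pairs with all 21 bases including the whole seed, and ggggtatttgacaaactgac, which lacks the base opposite the 5′ end. In build rn4, the one named in the files, the stretch mapped for the probes is chrX:83869121-83869140, which does not cover the whole longer probe. The longer probe had a mean total signal of 10.7 ± 1.22 in the sham group and 33.9 ± 7.86 in the TULP group (SD, n = 4), a ratio of 3.18. The shorter probe went from 8.23 ± 1.31 to 22.7 ± 5.64, a ratio of 2.76. Each probe signal was 5.21 to 9.55 times its own error, where detection requires more than 3 times.

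**Figure D2:**
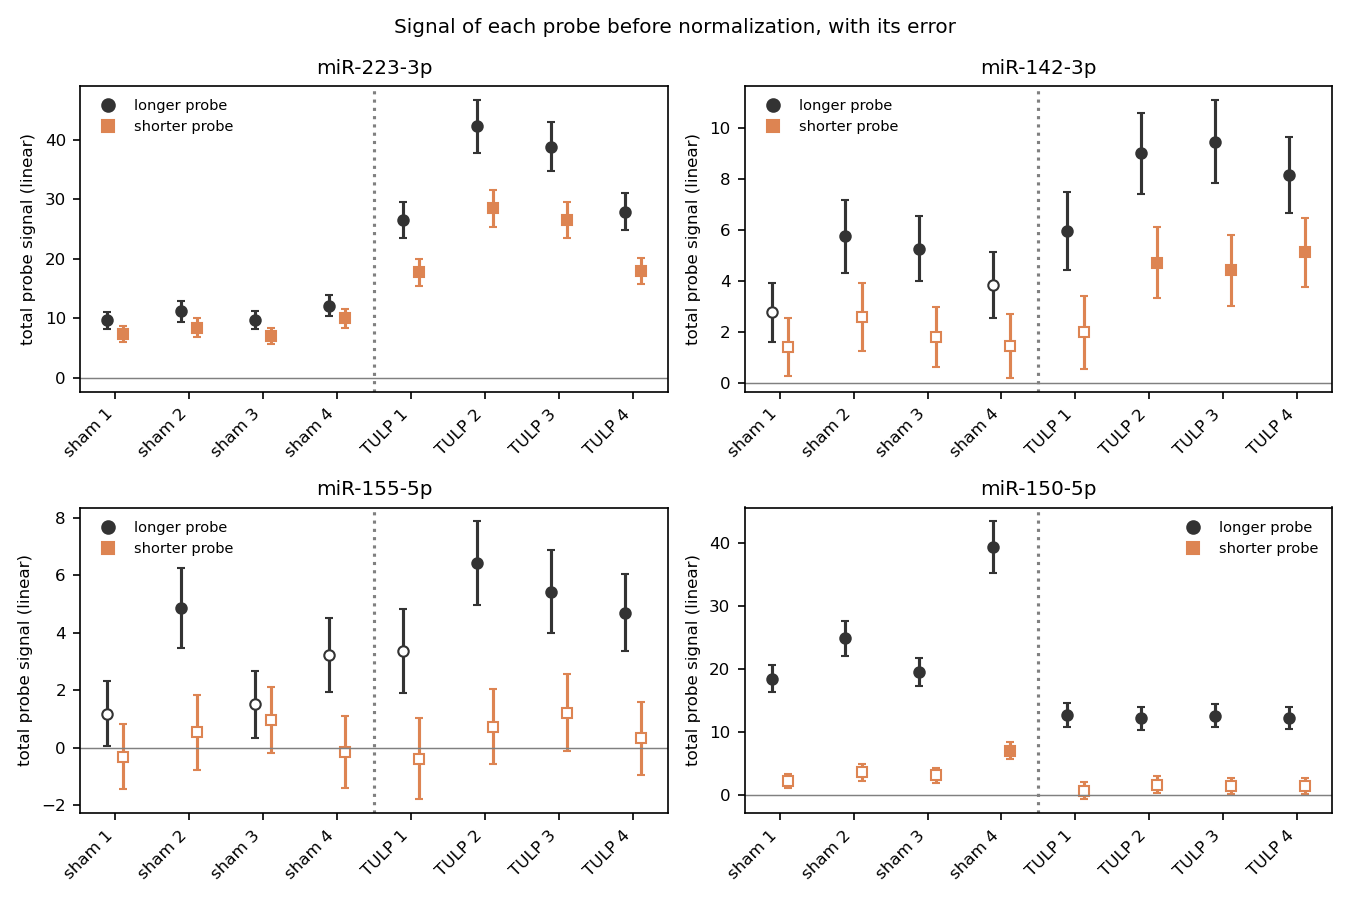
Total signal of each probe before normalization (vertical axis, linear units, scaled separately per miRNA) on the 8 arrays, with bars for the signal's own error from the scanner software, filled symbols for detected and open symbols for undetected values. Both probes of miR-223-3p separate the groups, the shorter probe of miR-142-3p is detected on TULP arrays 2, 3 and 4 alone, and the longer probe of miR-150-5p is highest on sham array 4.

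miR-142-3p, the miRNA of nearly all leukocytes, was detected on 2 sham arrays and on all 4 TULP arrays. Its level was 2.50 and 2.28 in sham replicates 2 and 3, at the floor of 0.96 in sham replicates 1 and 4, and 2.76, 3.98, 4.05 and 3.95 in TULP replicates 1 to 4. All TULP arrays were above all sham arrays, but TULP replicate 1 was closer to sham replicate 2 than to the other TULP arrays. Before normalization its signal was 5.78 and 5.27 on the sham arrays that detected it and 5.97, 13.8, 13.9 and 13.3 on the TULP arrays. The mean level rose from 1.67 ± 0.83 to 3.69 ± 0.62 (SD, n = 4), a difference of 2.01 (SE 0.47, 95% interval 0.91 to 3.11, limma adjusted p = 0.0163). It was 2.64 and 2.04 within the slide rows and 2.34 with the row as a block (limma adjusted p = 0.0272).

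How large the rise of miR-142-3p was depended on how undetected probes and arrays were treated. Its probes are tccataaagtaggaaacactaca, which pairs with bases 1 to 23, and tccataaagtaggaaacactac, which pairs with bases 2 to 23. The longer probe went from 4.43 ± 1.36 in the sham group to 8.16 ± 1.56 in the TULP group, a ratio of 1.84, with 2 and 4 arrays detected. The shorter one was detected on 3 TULP arrays and no sham array, with mean totals of 1.83 ± 0.54, not above its error limit, and 4.08 ± 1.41. The signal of a miRNA is the sum of its detected probes, so the shorter probe added to it on TULP replicates 2, 3 and 4 alone, and sham replicates 1 and 4, where neither probe was detected, held the floor. With all probes summed whatever their detection, the sums were 4.23, 8.37, 7.09 and 5.32 on the sham arrays, against 7.97, 13.8, 13.9 and 13.3 on the TULP arrays. TULP replicate 1 then lay below sham replicate 2 before normalization, although not after it. On these sums, which put undetected probe values in place of the floor, the mean levels were 2.55 and 3.76 and the difference was 1.20 on the log2 scale (SE 0.27, 95% interval 0.56 to 1.84, limma adjusted p = 0.0134), still more than 2-fold.

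The call for miR-142-3p was lost without sham replicate 4 (difference 1.78, limma adjusted p = 0.0506) and without TULP replicate 2 (2.01, limma adjusted p = 0.0513). It was also lost after normexp, where the difference was 0.14, and on the deposited table, where undetected values lie far lower and the difference was 4.15 with a limma adjusted p of 0.0797. Scaled to the spike-ins, it passed with a difference of 1.47 (limma adjusted p = 0.0218), but the levels of the groups then overlapped.

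miR-155-5p, the miRNA of activated macrophages and lymphocytes, was near the limit of detection by its probe signals. Its level was 2.28 in sham replicate 2 and at the floor in the other sham arrays, and it was 2.97, 2.66 and 2.11 in TULP replicates 2, 3 and 4 and at the floor in TULP replicate 1. The groups overlapped: sham replicate 2 was above TULP replicates 1 and 4. It passed the detection filter with exactly the 4 arrays required, 3 of them TULP arrays. The mean levels were 1.29 ± 0.66 and 2.18 ± 0.89 (SD, n = 4), a difference of 0.89 (SE 0.50, 95% interval -0.28 to 2.06, limma adjusted p = 0.236). That interval holds both no change and a rise of more than 4-fold.

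The signal of miR-155-5p came from 1 of its probes. acccctatcacaattagc, which pairs with bases 6 to 23 and so with 3 bases of the seed, had a mean total signal of 2.70 ± 1.69 in the sham group and 4.98 ± 1.28 in the TULP group. On single arrays it was 1.05 to 4.42 times its own error. The probe 1 base shorter, acccctatcacaattag, was detected on no array. With all probes summed, the signals were 0.893, 5.40, 2.49 and 3.09 on the sham arrays, against 3.00, 7.16, 6.65 and 5.04 on the TULP arrays, so 2 TULP arrays exceeded every sham array. The difference was then 0.75 (limma adjusted p = 0.128). The stored totals of the scanner files lay far above the sums of detected probes. They were 132 in sham replicate 2 and 72.1, 77.6 and 78.7 in TULP replicates 2, 3 and 4, so the highest was a sham array. On them the difference was 2.37 (limma adjusted p = 0.335), and why they differ from the probe sums was not tested. Without TULP replicate 1, miR-155-5p passed with a difference of 1.29 (limma adjusted p = 0.0404), whereas without sham replicate 2 or TULP replicate 2, 3 or 4 it no longer met the detection filter. Within the slide rows the difference was 1.24 and 0.71, and with the row as a block 0.98 (limma adjusted p = 0.313).

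miR-150-5p, the miRNA of resting lymphocytes, was detected on all 8 arrays and was the one tested member whose level was lower in the TULP group. It was 4.22, 4.41, 4.14 and 5.10 in sham replicates 1 to 4 and 4.03, 3.79, 3.91 and 3.79 in TULP replicates 1 to 4. All TULP arrays were below all sham arrays, though the gap between TULP replicate 1 and sham replicate 3 was small, and sham replicate 4 stood highest. Before normalization the signal was 18.4, 24.9, 19.5 and 46.3 on the sham arrays, against 12.7, 12.1, 12.6 and 12.2 on the TULP arrays. It ranked between 62 and 89 among the detected miRNAs of the sham arrays and between 92 and 99 on the TULP arrays. The mean level was 4.47 ± 0.44 in the sham group and 3.88 ± 0.12 in the TULP group (SD, n = 4), a difference of -0.59 (SE 0.22, 95% interval -1.09 to -0.09). This had an unadjusted limma p of 0.0273 and an adjusted p of 0.0737. An unadjusted p under 0.05 was found for 43.0% of all tested miRNAs, and in the lower direction for 23.8%.

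The size of this difference hung on sham replicate 4. That array also had the highest summed signal of all arrays, and a link to its level of miR-150-5p was not tested. Without sham replicate 4 the difference was -0.38 (limma adjusted p = 0.0536). It was -1.19 within the first slide row, where sham replicate 4 was the only sham array, -0.47 within the other row, and -0.83 with the row as a block (limma adjusted p = 0.0272, under 2-fold). Scaling changed the call. With the spike-ins miR-150-5p was differentially expressed at -1.26 (SE 0.20, limma adjusted p = 0.00117), where 35.1% of all tested miRNAs were differentially expressed, 3.31% higher and 31.8% lower. Relative to the shifted median it was then -0.48. With no normalization it was -1.03 (limma adjusted p = 0.0189). On the stored totals of the scanner files, which for miR-150-5p lay above the sum of its detected probes on all arrays but sham replicate 4, the direction turned to 0.40 (limma adjusted p = 0.596).

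The longer probe of miR-150-5p, of 17 bases, had mean totals of 25.5 ± 9.62 in the sham group and 12.4 ± 0.28 in the TULP group (SD, n = 4), 2.06 times higher in the sham group. The shorter probe, of 16 bases, was detected on sham replicate 4 alone. With all probes summed the difference was -0.63 (SE 0.17, limma adjusted p = 0.0303), under 2-fold. In build rn4 the stretch mapped for the probes is chr1:95596098-95596113, which does not cover the whole longer probe.

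**Figure D3:**
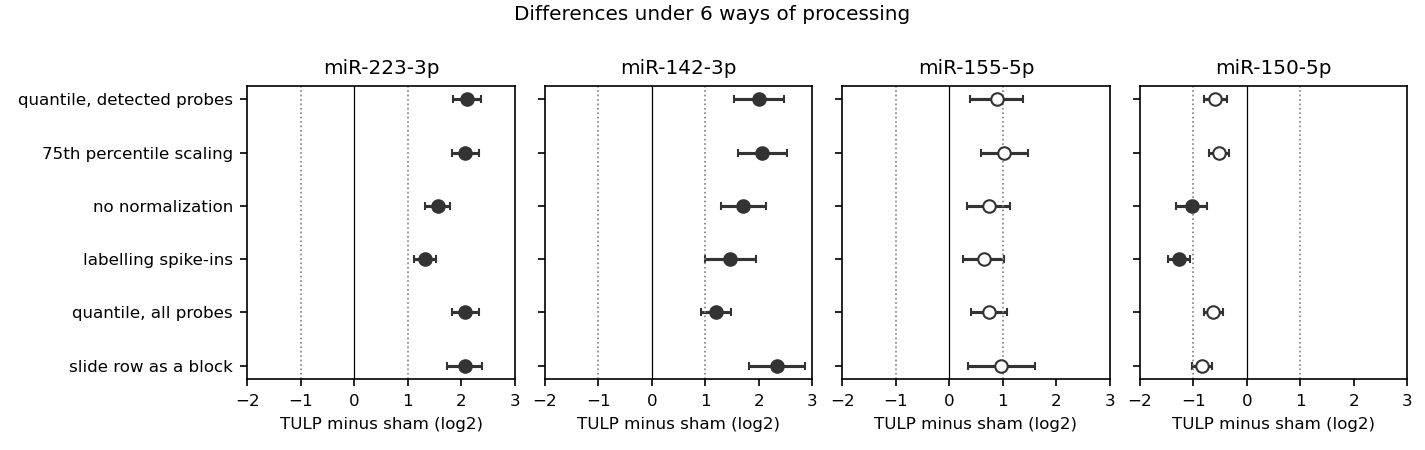
TULP minus sham difference in log2 signal (horizontal axis, bars for ± SE) of the 4 tested members under 6 ways of processing (rows), with filled points for differentially expressed and dotted lines at 2-fold. miR-223-3p and miR-142-3p are filled in the 6 rows drawn (normexp, where both lost the call, and the deposited table, where miR-142-3p did, are not among them), miR-155-5p in none, and miR-150-5p with no normalization (-1.03) and with the labelling spike-ins (-1.26).

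The partner arms miR-223-5p, miR-142-5p, miR-155-3p and miR-150-3p were detected on no array of either group. Their 9 probes gave 72 probe values, which lay between -1.70 and 1.94 times their own error, and 0 of their 462 spots were marked well above background. These arms have no fold change, and their levels were not detectable at this signal. For 3 of these arms the pairing of the probes could be read from the sequences above. The probes of miR-142-5p, agtagtgctttctacttta and agtagtgctttctacttt, pair from base 3 or base 4 onward, as do both probes of miR-155-3p, and the longest of the 3 probes of miR-223-5p pairs from base 7 onward. The middle and shortest probes of miR-223-5p pair from base 8 and base 9. Of the detected arms, the probes of miR-223-3p and miR-142-3p pair from base 1 or base 2. The detected probe of miR-155-5p pairs from base 6 and its undetected one from base 7. Whether the place of pairing had a part in detection was not tested.

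Whether the members changed by different amounts was tested directly, for all 6 pairs, with a two-sided exact permutation test on the difference of 2 members within each array. With 4 arrays against 4 the smallest p is 0.0286. An adjusted p under 0.05 over the 6 pairs thus requires at least 4 pairs at that smallest p, however large a single difference is. The change of miR-223-3p exceeded that of miR-150-5p by 2.69 (SE 0.38) and that of miR-155-5p by 1.21 (SE 0.36), and the change of miR-142-3p exceeded that of miR-150-5p by 2.60 (SE 0.66). Each of these had an exact permutation p of 0.0286 and an adjusted p over the 6 pairs of 0.0571. The change of miR-142-3p exceeded that of miR-155-5p by 1.12 (SE 0.37), and the change of miR-155-5p exceeded that of miR-150-5p by 1.48 (SE 0.64), each with an exact permutation p of 0.0571 and an adjusted p of 0.0686. The change of miR-142-3p minus that of miR-223-3p was -0.09 (SE 0.43, exact permutation p = 0.886), but with all probes summed it was -0.87 (adjusted exact permutation p = 0.0429). miR-155-5p was at the floor on 4 arrays, and on the deposited table, where undetected values lie lower, its change minus that of miR-223-3p turned to 0.99. No pair passed the adjusted threshold over all 8 arrays with quantile normalized sums of detected probes. Too few pairs were at the smallest p for any to pass there, so this does not show equal changes. At an adjusted exact permutation p of 0.0429, 4 pairs passed with all probes summed, 4 without sham replicate 3, and 4 with signals scaled to the 75th percentile of the miRNAs detected on all arrays. They were not the same pairs: miR-142-3p against miR-223-3p passed only with all probes summed, and miR-142-3p against miR-155-5p only in the other 2 settings. No pair passed when scaled to the spike-ins, with no normalization, on the deposited table, or with any array other than sham replicate 3 left out.

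**Figure D4:**
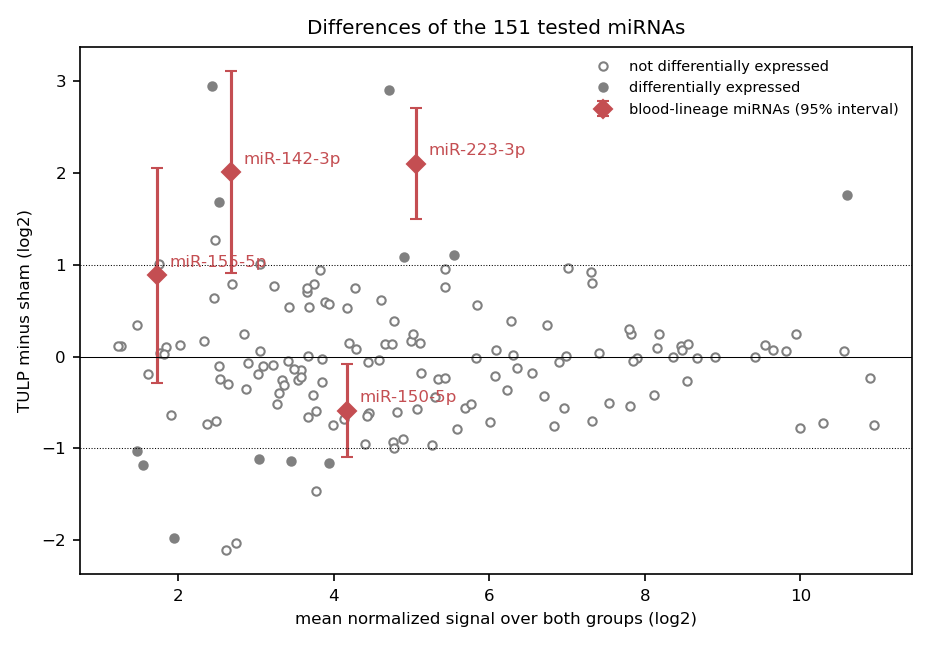
TULP minus sham difference (vertical axis, log2) against the mean level over both groups (horizontal axis, log2 normalized signal) for the 151 tested miRNAs, with the blood-lineage members as diamonds with 95% intervals and filled grey points for the other differentially expressed miRNAs. miR-223-3p (2.10) and miR-142-3p (2.01) lie among the largest rises, while the interval of miR-155-5p crosses 0 (-0.28 to 2.06) and that of miR-150-5p lies just below it (-1.09 to -0.09).

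Profiles were compared over the 8 arrays by the root mean square distance between log2 levels after each miRNA was centred on its own mean, among 147 other tested miRNAs. All profiles share the same arrays and normalization, and the values are descriptive. The nearest to miR-223-3p were miR-21-5p (distance 0.42), miR-20a-5p (0.56) and miR-34a-5p (0.62), against a median distance of 1.20. The nearest to miR-142-3p were miR-21-5p (0.53), miR-20a-5p (0.64) and miR-20b-5p (0.71), against a median of 1.26. Of these neighbours, miR-21-5p differed by 1.76, miR-20a-5p by 1.08, miR-20b-5p by 1.01 and miR-34a-5p by 0.95 between the groups. miR-155-5p lay nearest to miR-1949 (0.47), miR-20a-5p (0.51) and miR-1224 (0.53), with a median of 0.91. miR-150-5p lay nearest to miR-100-5p (0.18), miR-181a-5p (0.23) and miR-99b-5p (0.25), with a median of 0.51. Among the members themselves, miR-142-3p and miR-223-3p were the closest pair (0.53) and miR-142-3p and miR-150-5p the farthest (1.53). However, miR-142-3p was detected on 6 of the 8 arrays and miR-155-5p on 4, so all distances from them rest in part on the floor. With all probes summed, the difference of miR-142-3p was 1.20, against 2.08 for miR-223-3p and 0.75 for miR-155-5p. Whether the order of the pairs holds on those sums was not tested.

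Other miRNAs known from immune cells did not move as 1 group. Of 17 listed, 9 were detected on no array and 6 were tested, of which 1 passed the adjusted p as higher and 1 as lower, against 13.9% and 16.6% of all tested miRNAs. The riser was miR-146b-5p, an inhibitor of Toll-like receptor signalling, with a mean level of 3.26 ± 0.77 in the sham group and 6.17 ± 0.33 in the TULP group (SD, n = 4), a difference of 2.90 (limma adjusted p = 0.00320). Its relative miR-146a-5p differed by 0.39 (limma adjusted p = 0.0995). The faller was miR-181a-5p, known from thymocytes and early B cells and also expressed outside the blood, with a difference of -0.61 (limma adjusted p = 0.0336). miR-342-3p, miR-125a-5p and miR-212-3p, with differences of 0.13, 0.39 and -0.26, did not pass. The median difference of the 6 was 0.26, against -0.02 over all tested miRNAs. The summed level of the 17 listed miRNAs, counted where detected, was 7.17 to 7.67 on the sham arrays, against 7.84 to 8.19 on the TULP arrays. That sum includes miR-146b-5p.

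miRNAs of other cell types in the tissue were read beside the members. Of the 4 erythroid miRNAs, 2 were detected on no array (miR-144-3p and miR-144-5p), and the mean levels of the others were not higher in the TULP group. miR-451-5p, the red cell miRNA, differed by -0.66 (limma adjusted p = 0.597) and miR-486 by -0.79 (limma adjusted p = 0.0498). However, miR-451-5p was detected on 3 of the 4 TULP arrays and held the floor on the remaining one. On 2 TULP arrays it was above its sham mean, so the direction of its difference rests on the undetected array. The summed erythroid level was 5.96 to 6.63 on the sham arrays, against 5.02 to 6.32 on the TULP arrays. The endothelial miR-126a-3p differed by 0.01 (limma adjusted p = 0.992). These 3 differences do not measure the red cell or vessel content of the tissue, and that of miR-451-5p had an SE of 0.75.

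Of the 5 striated muscle miRNAs, 4 were tested and 3 passed the adjusted p as lower, miR-1-3p by -0.74, miR-133a-3p by -0.96 and miR-133b-3p by -0.72, where 16.6% of all tested miRNAs did. The remaining one, miR-206-3p, differed by 0.25 (limma adjusted p = 0.795). Their summed level was 11.98 to 12.47 on the sham arrays, against 11.37 to 12.18 on the TULP arrays. The 8 epithelial miRNAs, the miR-200 family among them, were all detected on at least 1 array. Of the 7 tested, the lowest limma adjusted p was 0.0675, for miR-375-3p. It was detected on all sham arrays but only 1 TULP array, so its difference of -2.03 rests on the floor and is not exact. miR-200c-3p, detected on all arrays, differed by -1.46 (limma adjusted p = 0.0753), and 2 of the 7 were higher, by at most 0.01. The median difference of the 7 was -0.68. The summed level of the 8, counted where detected, was 8.93 to 9.40 on the sham arrays, against 8.59 to 9.87 on the TULP arrays. Of the 3 smooth muscle miRNAs, 2 were tested, miR-143-3p with a difference of 0.07 (limma adjusted p = 0.905) and miR-145-5p with -0.63 (limma adjusted p = 0.356), with a summed level of 9.34 to 9.86 on the sham arrays, against 9.31 to 10.36 on the TULP arrays. What part such differences in tissue makeup had in the values of miR-223-3p, miR-142-3p, miR-155-5p and miR-150-5p was not tested.

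**Figure D5:**
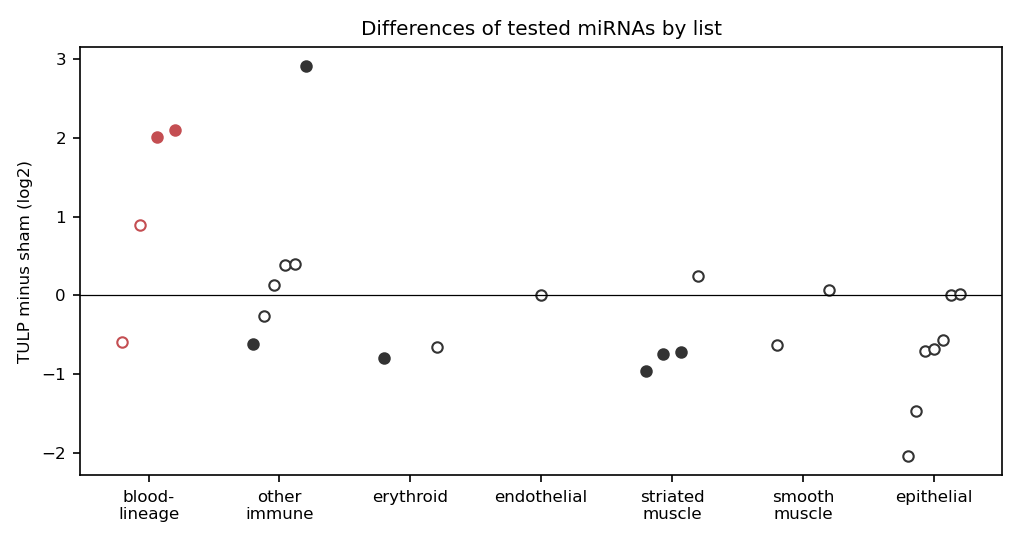
TULP minus sham difference (vertical axis, log2) of each tested miRNA in 7 lists (horizontal axis), blood-lineage members in red, with filled points for a limma adjusted p under 0.05. The largest rise in these lists is miR-146b-5p (2.90), followed by miR-223-3p (2.10) and miR-142-3p (2.01), and all filled points of the erythroid and striated muscle lists are below 0.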

How the data were processed

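Prostatic urethral RNA of 4 sham and 4 TULP rats was hybridized to 1-colour rat miRNA arrays. Per the submitters' processing notes, the image software was Agilent Feature Extraction (version 10.7.1.1), and the deposited scanner files hold background-subtracted spot, probe and miRNA intensity values on a linear scale, not normalized between arrays. The authors also deposited a quantile normalized table of log2 values, used as an alternative. Here the signal of a miRNA was the sum over its detected probes, those with a total above 3 times its error, or 0.1 where no probe did. Signals of the 758 rat miRNAs were quantile normalized, as the study's methods state, raised to a floor of 1.94 (the lowest normalized value among detected miRNAs of each array, median of the 8), and converted to log2. The 22 control features were left out. The stored total per miRNA, which for some miRNAs and arrays differs from that sum, served as an alternative. Arrays carry no read depth, and their number limits the precision.

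The 151 miRNAs detected on at least 4 of 8 arrays entered a limma model (limma 3.58.1, R 4.3.3, functions lmFit and eBayes) that held group alone, and p-values were adjusted by Benjamini-Hochberg over all of them. Differentially expressed means more than 2-fold changed at an adjusted p under 0.05. Pairs of members were compared by exact permutation over the 70 labellings of the arrays. The fit was tested on simulated data. Named were all members, differentially expressed miRNAs of the cell type lists, and the 3 nearest profiles of each tested member. Other list miRNAs given by name were chosen after their values were seen. Members and lists were chosen with earlier results of these data known. Alternatives covered the signal, normalization, background, floor, filter, test, replicate and slide row blocks, and leaving out each array. Sums over all probes, the brightest probe alone, values within slide rows and pair comparisons with an array left out were added after seeing the data. Sequences, genes and GRCr8 positions are from RefSeq, and rn4 positions are those in the scanner files.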

Additional observations from a re-analysis of the deposited data

Results flagged for a closer look

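In groups of 4 arrays, a value was singled out where its gap to the nearest of the others took up more of the range of the group than Dixon's limit allows. Over 20 groups checked, 4 members and 6 lists in sham and TULP, 3 values were singled out, and chance alone singles out about 5% of groups. miR-142-3p was low in TULP replicate 1, at 2.76 on the log2 scale. miR-155-5p was high in sham replicate 2, at 2.28, where the other sham arrays were undetected and held the floor value. Those tied values make the gap equal to the whole range. This flag thus follows from detection on 1 sham array and cannot be set against the 5%. The summed level of the striated muscle miRNAs was low in sham replicate 2, at 11.98.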

How the results depend on the processing

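miR-223-3p kept its call under 28 of the 29 alternatives that gave a test, the exception being normexp (0.71), and its difference was 1.96 to 2.34 with 1 array left out. miR-142-3p kept its call under 22 of 28. The others were normexp (0.14), all rat miRNAs tested (2.01, limma adjusted p = 0.180), the deposited table (4.15, limma adjusted p = 0.0797, and 0.118 by the methods' t-test), and 2 of the arrays left out, over which it was 1.78 to 2.29. miR-155-5p was 0.74 to 1.29 with an array left out, 0.05 after normexp, 0.37 with a floor of 4, 2.37 on the stored totals and 3.05 on the deposited table. miR-150-5p was -0.70 to -0.38 with an array left out, passed scaled to the spike-ins (-1.26) and with no normalization (-1.03), was -1.19 within the first slide row, and reversed on the stored totals (0.40). Members differentially expressed numbered 2, but 0 after normexp, 1 when only miRNAs detected on all 8 arrays were tested, which leaves out miR-142-3p, 1 with all rat miRNAs, 1 on the deposited table by either test after adjustment, 3 scaled to the spike-ins and without normalization, and 1 to 3 with an array left out. Normexp turned 2 members with adjusted p under 0.05 to under 2-fold. All tested miRNAs differentially expressed numbered 14, but 46 at the adjusted p alone, 1 after normexp, 53 scaled to the spike-ins, 34 without normalization, 8 and 4 under the 2 filters just named, and 9 without TULP replicate 3. Apart from the reasons given, the cause was not tested.

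Between pairs, miR-142-3p minus miR-223-3p reversed to 0.14 (spike-ins), 0.15 (no normalization) and 2.08 (deposited table), was -0.87 with all probes summed, and ran from -0.33 to 0.12 with an array left out. miR-155-5p minus miR-223-3p reversed to 0.99 on the deposited table, was -1.04 at the 75th percentile and -1.33 with all probes, and ran from -1.32 to -0.95. With miR-150-5p, miR-142-3p gave 2.58 and 1.83 under those 2 settings and 2.16 to 2.93 with an array left out, and miR-150-5p minus miR-223-3p gave -2.59, -2.70 and -2.99 to -2.47. miR-142-3p minus miR-155-5p was 1.03 at the 75th percentile and 0.97 to 1.40 with an array left out, and miR-150-5p minus miR-155-5p was -1.93 to -1.19. Scaling to the 75th percentile of all rat miRNAs was not run, since that percentile is the undetected value of 0.1.

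Same-numbered arrays of the groups did not deviate together (correlations of 0.13, -0.10, 0.27 and -0.10), and 2 of 8 arrays correlated best with their own number, so the numbers were not taken as pairs. With the replicate block, 11 tested miRNAs and 2 members were differentially expressed, with differences of 2.10 for miR-223-3p, 2.01 for miR-142-3p, 0.89 for miR-155-5p and -0.59 for miR-150-5p, and no member's call changed. Signals of miR-142-3p and miR-155-5p close to their errors limit what these arrays can show.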
